A study of Mus musculus with 6 samples.

Results

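The genes described here were all but silent in healthy hepatocytes and expressed in every library of hepatocytes labelled senescent, from mice in which Cre recombinase deletes Mdm2. A gene was taken when its share of the library's total counts, scaled to 1e+06 (CPM), averaged under 0.3 over the 3 healthy libraries and reached at least 2 in each of the 3 senescent libraries. In all, 65 of the 32061 genes in the table passed (0.203%), and 12 of them were set aside by symbol: St14, Ckmt1, Ak1, Cpt1c, Cox6b2, Psrc1, Inka2, Cxcl17, Pmaip1 and Ckap2, and symbols of the RIKEN type. The remaining 53 genes are the members. The senescent cells came from mice with the AhCre transgene and floxed Mdm2 on both chromosomes (AhCre+Mdm2fl/fl), and the healthy cells from mice without the transgene (AhCre-), for which the labels name no Mdm2 allele. Having Cre and losing Mdm2 thus cannot be told apart. AhCre is Cre recombinase under a promoter that ligands of the aryl hydrocarbon receptor switch on. Mice of both groups were 10 to 12 weeks old and had been injected with β-naphthoflavone, a ligand of this kind (20 mg/kg, with 48 h allowed for Cre induction). Hepatocytes were released by perfusing the liver with collagenase and were enriched on a density gradient, and their polyadenylated RNA was sequenced, with 3 libraries per group. The labels do not say whether the libraries of a group stem from separate animals, and the spread behind each p-value is that among the libraries.

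Mdm2 is the ubiquitin ligase that holds the transcription factor p53 in check, and cells that lose it accumulate p53. p53 switches on genes for growth arrest and for death signalling, among them Cdkn1a, whose product p21 stops the cell cycle. Senescent cells are arrested for good and are known for secreting cytokines, growth factors and proteases. Hepatocytes keep the programmes of neurons, germ cells, muscle and blood cells shut, and many members are best known from those cells.

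The libraries held 29992707 to 32210591 counts in the senescent and 28799392 to 33267299 counts in the healthy group. With counting error alone a 0 leaves room for 3 counts, which is 0.09 to 0.104 CPM on total counts in the healthy libraries. Levels below are CPM on library sizes scaled by the trimmed mean of M values (TMM). On that scale 3 counts are 0.101 to 0.117 CPM in the healthy libraries. Mdm2 itself stood at 464, 463 and 501 CPM in senescent replicates 1 to 3, beside 19.03, 22.7 and 21.98 CPM in the healthy ones. The position of the deleted exons was not used here, so that this transcript level does not check the deletion. Cdkn1a had 653, 773 and 724 CPM in senescent libraries, against 21.3, 31.04 and 54.3 CPM in healthy ones. The hepatocyte genes Alb and Hnf4a were well above 0 in both groups, with Alb at 48992 to 55944 CPM in senescent and 79815 to 99340 CPM in healthy libraries, and Hnf4a at 688 to 898 CPM in senescent and 662 to 986 CPM in healthy libraries. Of the 15 hepatocyte genes listed and tested, 9 were lower in senescent cells and 0 higher (edgeR), with a median log2 fold change of -0.81 and a summed level of 101610 to 121070 CPM in senescent and 172730 to 187700 CPM in healthy libraries. In these bulk samples, fewer cells of a type and less RNA per cell cannot be told apart.

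Promoters are shown because p53 binds a known sequence and the members were chosen for switching on together. They are those of the 3 genes taken as marking the set, Prrg4, Cercam and Sec14l5, and of 3 further members. The further 3, Celf5, Nkx2-9 and Chrm3, all hold a match of the kind marked below. The promoters shown thus do not stand for all members. Each run goes from 250 bases before an annotated RefSeq transcription start to 50 bases after it on GRCm38.p6, 5′ to 3′ on the gene's strand. Capitals mark matches to the p53 decamer consensus, 1 of the pair of decamers that make up a full p53 response element.
Prrg4 (chr2:104849801-104850100, minus strand): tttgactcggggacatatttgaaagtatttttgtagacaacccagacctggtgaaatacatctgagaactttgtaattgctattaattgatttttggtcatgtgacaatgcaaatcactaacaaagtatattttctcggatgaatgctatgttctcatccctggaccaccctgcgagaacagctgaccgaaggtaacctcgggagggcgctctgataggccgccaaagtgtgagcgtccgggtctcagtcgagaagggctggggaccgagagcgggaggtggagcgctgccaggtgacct
Cercam (chr2:29869244-29869543, plus strand): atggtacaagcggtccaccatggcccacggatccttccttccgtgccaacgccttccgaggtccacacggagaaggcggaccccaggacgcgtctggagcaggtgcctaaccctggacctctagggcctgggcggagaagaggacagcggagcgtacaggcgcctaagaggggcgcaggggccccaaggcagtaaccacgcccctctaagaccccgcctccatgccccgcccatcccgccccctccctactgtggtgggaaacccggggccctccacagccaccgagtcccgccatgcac
Sec14l5 (chr16:5146859-5147158, plus strand): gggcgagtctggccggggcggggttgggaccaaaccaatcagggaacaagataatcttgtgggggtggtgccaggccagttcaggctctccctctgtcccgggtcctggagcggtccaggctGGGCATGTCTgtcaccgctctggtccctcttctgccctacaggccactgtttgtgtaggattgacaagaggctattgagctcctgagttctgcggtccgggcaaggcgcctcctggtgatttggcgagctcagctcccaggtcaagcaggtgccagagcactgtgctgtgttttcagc
Celf5 (chr10:81482650-81482949, minus strand): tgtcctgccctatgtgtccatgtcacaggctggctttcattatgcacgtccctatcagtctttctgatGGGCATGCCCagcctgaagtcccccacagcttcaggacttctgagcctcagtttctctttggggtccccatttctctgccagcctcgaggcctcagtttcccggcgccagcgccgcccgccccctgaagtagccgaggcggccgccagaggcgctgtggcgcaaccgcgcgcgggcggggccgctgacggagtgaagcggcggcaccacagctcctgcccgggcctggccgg
Nkx2-9 (chr12:56613235-56613534, minus strand): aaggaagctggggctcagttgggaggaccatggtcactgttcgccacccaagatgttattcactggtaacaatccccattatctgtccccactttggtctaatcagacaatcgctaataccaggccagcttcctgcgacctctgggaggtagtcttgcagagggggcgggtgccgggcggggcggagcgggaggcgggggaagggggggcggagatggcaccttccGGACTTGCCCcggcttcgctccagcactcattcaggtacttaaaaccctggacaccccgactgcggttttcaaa
Chrm3 (chr13:10360754-10361053, minus strand): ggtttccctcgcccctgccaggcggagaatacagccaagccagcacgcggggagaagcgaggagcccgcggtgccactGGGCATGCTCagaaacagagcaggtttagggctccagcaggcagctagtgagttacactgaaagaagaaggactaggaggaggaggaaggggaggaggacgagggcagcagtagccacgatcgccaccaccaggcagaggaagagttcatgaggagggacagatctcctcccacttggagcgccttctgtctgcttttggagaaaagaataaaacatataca

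No match stood in the Prrg4 and Cercam windows, and the matches in the other 4 lay 128 bases before the start of Sec14l5, 182 before that of Celf5, 24 before that of Nkx2-9 and 172 before that of Chrm3. RefSeq lists 5 starts for Celf5, and the windows of the other 4 held no match. RefSeq promoters were found by symbol for 33 of the 53 members. With a gene counted once if any of its windows held a match, the decamer was present, on either strand, in 5 of the 33 (15.2%), the fifth being the noncoding Gm13056, and in 9.55% of the promoters of 27025 symbols. The TATA box TATAAA was in 3 of 33 member promoters (9.09%) and 15.7% of all, the GC box GGGCGG in 16 (48.5%) and 38.2%, and the CCAAT box CCAAT in 12 (36.4%) and 41.1%, each searched on both strands, with no motif containing another. Member promoters held a median of 11 CpG and 61.3% GC, against 7 CpG and 52.8% GC over all symbols. The windows of the p53 targets Lif, Zfp365 and Tnfrsf18 held no decamer match. A match is a string of letters and says nothing of binding, and the absence of one concerns only this window.

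Summed over the 53 members, the senescent libraries held 540, 665 and 771 CPM and the healthy ones 6.802, 5.41 and 3.71 CPM, which is 659 ± 115 and 5.31 ± 1.55 CPM (SD, n = 3 each). The gap between groups was what chose the members and is given as a description. All 53 had enough counts to enter the test over 12949 genes, as their rule required, and no test was made of them. For scale, 41.1% of genes tested were called between the groups (adjusted p under 0.05), 20.4% higher and 20.7% lower in senescent cells, and 53.9% had groups that did not overlap. Mean senescent CPM of the members ran from 2.42 to 86.8 with a median of 6.29. Of the members 17 reached 10, 15 lay from 5 to 10 and 21 under 5. The 5 most abundant members, Mybl1, Tnfrsf10b, Synm, Sec14l5 and Adam8, took 36.6% of the summed level. In the healthy libraries 10 members had no count at all, 11 had 1 to 3 counts over the group and 32 had more.

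**Figure D1:**
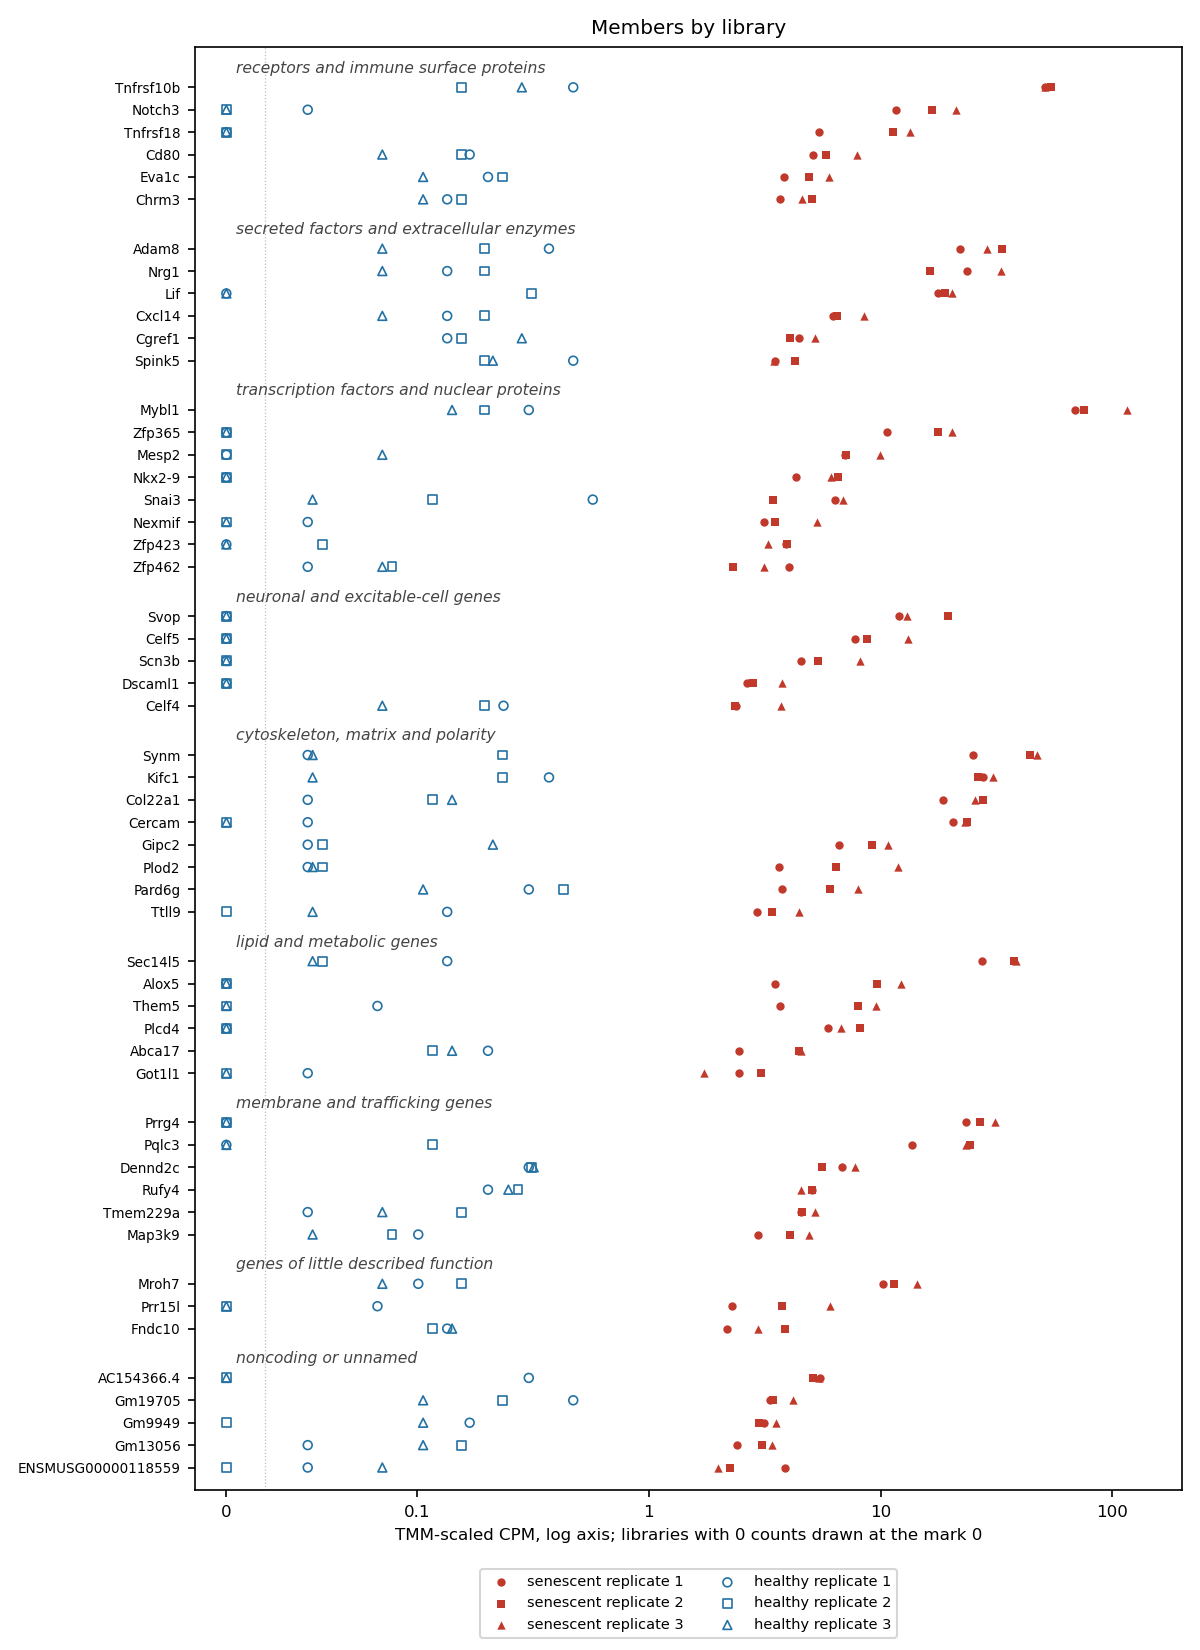
Each row is a member and each mark a library (filled, senescent; open, healthy), on a log axis of TMM-scaled CPM with libraries at 0 counts drawn at the mark 0. All senescent marks lie right of all healthy marks, as the rule required, and 10 rows have every healthy mark at 0.

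The 3 marking genes are poorly described in liver. Prrg4 (ENSMUSG00000027171; GRCm38 chromosome 2, 104830741 to 104849876, minus strand) encodes a transmembrane protein with a vitamin K-dependent Gla domain outside the cell. It had 23.5, 26.9 and 31.1 CPM in the senescent libraries, against 0 counts in each healthy one, and with 3 counts over the healthy group as a floor this was at least 756-fold higher. Cercam (ENSMUSG00000039787; GRCm38 chromosome 2, 29869164 to 29882840, plus strand) is related to the collagen galactosyltransferases. Cercam reached 20.6, 23.7 and 23.1 CPM in senescent replicates 1 to 3, beside 0.0337, 0 and 0 CPM in healthy replicates 1 to 3, where replicate 1 held the only count (1878-fold, with a 95% counting interval of 337 to 74227). Sec14l5 (ENSMUSG00000091712; GRCm38 chromosome 16, 5147109 to 5187271, plus strand) belongs to the SEC14 family of lipid-binding proteins. Sec14l5 reached 27.4, 37.6 and 38.5 CPM in senescent replicates 1 to 3, beside 0.135, 0.0389 and 0.0353 CPM in healthy replicates 1 to 3, or 480.1-fold. All 3 ranked among the 10 most abundant members, and in each the lowest senescent library was replicate 1.

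Few relatives of these genes outside the set could be tested. Of 3 tested Sec14l relatives 0 were higher and 2 lower, and the 1 tested Prrg relative was lower. This stands beside 20.4% higher and 20.7% lower among all genes tested. By the definition used here, Cercam had no relative. Relatives were genes with the same symbol stem. Every gene that met the rule was left out of them, so genes of a stem that went from silent to expressed are not counted. Counts of relatives are thus not independent of the rule. Of the Sec14l genes, Sec14l2 averaged 279 ± 50.7 CPM in senescent and 846 ± 91.5 CPM in healthy libraries (log2 fold change -1.60 ± 0.17, adjusted p = 2.17e-04) and Sec14l4 111 ± 7.96 CPM in senescent and 265 ± 3.95 CPM in healthy libraries (log2 fold change -1.26 ± 0.11, adjusted p = 8.41e-05) (edgeR quasi-likelihood test, Benjamini-Hochberg adjustment), so both were lower in senescent cells while Sec14l1 averaged 8.999 CPM in senescent and 8.99 CPM in healthy libraries and was not called. Prrg2 averaged 14.01 ± 1.36 CPM in senescent and 20.7 ± 1.89 CPM in healthy libraries (log2 fold change -0.56 ± 0.13, adjusted p = 0.00888), a call that was lost with total library sizes and without senescent replicate 3. The collagen galactosyltransferase gene Colgalt1 was not called and Colgalt2 had too few counts to be tested, and of the 8 tested genes of collagen modification 0 were higher and 1 was lower.

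Receptors and immune surface proteins made up 6 members, with 81.01, 98.4 and 104 CPM in senescent replicates 1 to 3, beside 1.01, 0.7002 and 0.566 CPM in the healthy ones. Tnfrsf10b (ENSMUSG00000022074; GRCm38 chromosome 14, 69767472 to 69784411, plus strand), the death receptor for TRAIL in the mouse and a known p53 target, was the most even member. Tnfrsf10b reached 51.3, 54.6 and 51.2 CPM in senescent replicates 1 to 3, beside 0.471, 0.156 and 0.283 CPM in healthy replicates 1 to 3, or 52.3 ± 1.94 CPM in senescent and 0.303 ± 0.159 CPM in healthy libraries (SD, n = 3 each). Tnfrsf18 (ENSMUSG00000041954; GRCm38 chromosome 4, 156026164 to 156028895, plus strand), the costimulatory receptor GITR of T cells, had 5.41, 11.4 and 13.3 CPM in the senescent libraries, against 0 counts in each healthy one. Its senescent libraries were unequal, replicate 3 being 2.47 times replicate 1. Notch3 (ENSMUSG00000038146; GRCm38 chromosome 17, 32120820 to 32166852, minus strand), a Notch receptor best known from vascular smooth muscle, had 11.7, 16.7 and 21.1 CPM in the senescent libraries, against 0.0337, 0 and 0 CPM in the healthy libraries, where a single read made up the healthy level. Cd80, the ligand by which antigen-presenting cells engage CD28 and CTLA4, had 5.13, 5.798 and 7.93 CPM in the senescent libraries, against 0.168, 0.156 and 0.0707 CPM in the healthy libraries. Chrm3, the muscarinic acetylcholine receptor M3 of glands and smooth muscle, had 3.68, 5.07 and 4.57 CPM in the senescent libraries, against 0.135, 0.156 and 0.106 CPM in the healthy libraries. Eva1c, whose worm counterpart acts in axon guidance with Slit, had 3.82, 4.92 and 6.02 CPM in the senescent libraries, against 0.202, 0.233 and 0.106 CPM in the healthy libraries. For each of these receptors the lowest senescent library stood above the highest healthy one, as the rule required.

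Some tested relatives of the receptors were also higher. Of 18 further Tnfrsf genes, 10 were tested, 7 were higher and 0 lower in senescent cells, beside 20.4% and 20.7% of all genes. Tnfrsf12a, the receptor for TWEAK, averaged 61.4 ± 22.03 CPM in senescent and 5.03 ± 0.862 CPM in healthy libraries (log2 fold change 3.61 ± 0.27, adjusted p = 3.74e-05). Tnfrsf23, a decoy receptor for TRAIL in the mouse, averaged 3.41 ± 0.6097 CPM in senescent and 0.648 ± 0.315 CPM in healthy libraries (log2 fold change 2.39 ± 0.36, adjusted p = 0.00133). Tnfrsf1a, a TNF receptor and the most abundant of them, averaged 175 ± 10.7 CPM in senescent and 89.6 ± 22.9 CPM in healthy libraries (log2 fold change 0.97 ± 0.18, adjusted p = 0.00409) (edgeR quasi-likelihood test in each case). The calls of Tnfrsf11a and Tnfrsf21 were lost without senescent replicate 3, and the other 5 held in every alternative tried. Notch1 averaged 293 ± 68.4 CPM in senescent and 12.4 ± 0.995 CPM in healthy libraries (log2 fold change 4.56 ± 0.20, adjusted p = 1.92e-06), against Notch2 at 38.2 CPM in senescent and 30.7 CPM in healthy libraries and Notch4 at 1.29 CPM in senescent and 1.67 CPM in healthy libraries, which were not called by edgeR. No relative of Chrm3 had enough counts to be tested.

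The pathways of these receptors were read from lists of genes outside the set. Each count by list or family, here and below, stands beside 20.4% higher and 20.7% lower among all genes tested. In the Notch pathway 3 of 16 tested genes were higher and 0 lower: the ligands Jag1 (2.97 against 1.25 CPM in senescent against healthy libraries) and Dll1 (15.5 against 5.53 CPM), and the sheddase Adam10 (31.1 against 20.2 CPM). The Notch target gene Hes1 averaged 8.76 against 11.5 CPM and was not called, and Hey1 had too few counts to be tested. In the death receptor pathway 2 of 9 were higher and 3 were lower, among them Tnfsf10, which encodes TRAIL (0.946 against 2.22 CPM). The lower calls of Tnfsf10, Bid and Ripk1 were each lost in 5 or 6 of 11 alternatives. Of the 3 tested genes of T-cell costimulation, Icosl alone was called, at 0.678 against 0.218 CPM, and that call was lost without senescent replicate 2. Of 7 tested genes of muscarinic signalling 2 were higher and 2 lower, with the G protein gene Gna11 at 69.6 against 50.1 CPM.

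Secreted factors and extracellular enzymes made up another 6 members, with 77.6, 83.6 and 99.6 CPM in senescent replicates 1 to 3, beside 1.25, 1.24 and 0.707 CPM in the healthy ones. Adam8 (ENSMUSG00000025473; GRCm38 chromosome 7, 139978932 to 139992562, minus strand), a membrane-bound metalloprotease known from myeloid cells, had 22.1, 33.6 and 28.9 CPM in the senescent libraries, against 0.3704, 0.195 and 0.0707 CPM in the healthy libraries. Nrg1 (ENSMUSG00000062991; GRCm38 chromosome 8, 31814551 to 32884029, minus strand), the neuregulin that activates ErbB3 and ErbB4 in nerve and heart, had 23.6, 16.3 and 33.2 CPM in the senescent libraries, against 0.135, 0.195 and 0.0707 CPM in the healthy libraries. Unlike most members, Nrg1 was lowest in senescent replicate 2. Lif (ENSMUSG00000034394; GRCm38 chromosome 11, 4257557 to 4272514, plus strand), an interleukin 6-family cytokine and p53 target, had 17.7, 18.9 and 20.4 CPM in the senescent libraries, against 0, 0.311 and 0 CPM in the healthy libraries, its 8 healthy counts all falling in replicate 2. Cxcl14, a chemokine made by skin and other epithelia, had 6.25, 6.497 and 8.48 CPM in the senescent libraries, against 0.135, 0.195 and 0.0707 CPM in the healthy libraries. The remaining pair stood lower, with Cgref1, a secreted EF-hand protein, at 4.57 ± 0.587 CPM in senescent and 0.191 ± 0.0801 CPM in healthy libraries (SD, n = 3 each), and Spink5, the protease inhibitor LEKTI of the epidermis, at 3.76 ± 0.457 CPM in senescent and 0.293 ± 0.155 CPM in healthy libraries (SD, n = 3 each). Spink5 had the smallest ratio of the 32 members with more than 3 healthy counts, 12.6-fold, where the range was 12.6 to 480 and the median 51.3.

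Receptors for these ligands, and relatives of such receptors, were tested outside the set. Of the ErbB receptor family, Erbb3 averaged 51.3 ± 20.05 CPM in senescent and 135 ± 20.3 CPM in healthy libraries (log2 fold change -1.39 ± 0.25, adjusted p = 0.00342) and was lower in senescent cells. Egfr was called higher and Erbb4 lower, at 592 against 310.1 CPM and 0.625 against 2.71 CPM, but both calls were lost in 4 or 5 of 11 alternatives. In the signalling of Lif and its family 3 of 10 tested genes were higher and 2 lower. Osmr, the oncostatin M receptor, averaged 10.4 ± 0.694 CPM in senescent and 1.37 ± 0.808 CPM in healthy libraries (log2 fold change 2.92 ± 0.34, adjusted p = 3.63e-04) and the cytokine gene Clcf1 3.11 ± 1.25 CPM in senescent and 0.398 ± 0.0968 CPM in healthy libraries (log2 fold change 2.96 ± 0.40, adjusted p = 7.58e-04). The LIF receptor gene Lifr averaged 200.3 CPM in senescent and 288 CPM in healthy libraries and was called lower, except with total library sizes and without senescent replicates 2 or 3. Among 8 tested Cxcl relatives 2 were higher and 2 lower: Cxcl11 averaged 8.602 against 2.75 CPM, Cxcl2 0.933 against 0.156 CPM, Cxcl12 47.1 against 202 CPM and Cxcl9 3.17 against 10.01 CPM in senescent against healthy libraries (edgeR, all 4 in every alternative).

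Transcription factors and nuclear proteins made up 8 members and had the highest summed level in senescent replicate 3, with 108, 119.8 and 171 CPM in senescent replicates 1 to 3, beside 0.943, 0.428 and 0.318 CPM in the healthy ones. Most of that sum was Mybl1 (ENSMUSG00000025912; GRCm38 chromosome 1, 9667415 to 9700209, minus strand), which encodes A-Myb, the factor needed for meiosis in male germ cells. Mybl1 reached 68.9, 75.3 and 116 CPM in senescent replicates 1 to 3, beside 0.303, 0.195 and 0.141 CPM in healthy replicates 1 to 3, or 86.8 ± 25.7 CPM in senescent and 0.213 ± 0.0824 CPM in healthy libraries (SD, n = 3 each). It was the most abundant member per library and also per kilobase of exon, at 16.1 ± 4.76 CPM per kb in senescent cells. Zfp365, a zinc-finger gene of the brain and a p53 target, had 10.7, 17.7 and 20.4 CPM in the senescent libraries, against 0 counts in each healthy one. Nkx2-9, a homeobox gene of the embryonic neural tube, had 4.29, 6.53 and 6.105 CPM in the senescent libraries, against 0 counts in each healthy one. Mesp2, which directs the segmentation of somites, had 7.03, 7.08 and 9.95 CPM in the senescent libraries, against 0, 0 and 0.0707 CPM in the healthy libraries, with 2 healthy counts, both in replicate 3.

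The others were lower. Snai3, a Snail-family repressor, had 6.36, 3.44 and 6.89 CPM in the senescent libraries, against 0.572, 0.117 and 0.0353 CPM in the healthy libraries, and its healthy replicate 1 held 17 of 21 healthy counts. Zfp423, a factor of preadipocytes and the cerebellum, had 3.904, 3.93 and 3.27 CPM in the senescent libraries, against 0, 0.0389 and 0 CPM in the healthy libraries, with a single healthy read. Zfp462, a zinc-finger protein of chromatin, had 4.02, 2.302 and 3.15 CPM in the senescent libraries, against 0.0337, 0.0778 and 0.0707 CPM in the healthy libraries, and was highest in senescent replicate 1. Nexmif, an X-linked gene of neurite growth, had 3.15, 3.496 and 5.32 CPM in the senescent libraries, against 0.0337, 0 and 0 CPM in the healthy libraries. Per kilobase of exon Zfp462 was the lowest member, at 0.295 ± 0.0801 CPM per kb in senescent cells, followed by Celf4 at 0.329 ± 0.09197, Dscaml1 at 0.346 ± 0.0671 and Nexmif at 0.346 ± 0.101 CPM per kb.

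Mybl1 belongs to a family that works with the MuvB complex at cell cycle genes. Its relative Mybl2, B-Myb, averaged 0.576 CPM in senescent and 0.204 CPM in healthy libraries and was not called. Of 10 tested genes of the MuvB and DREAM complexes 3 were higher and 2 lower, with Foxm1 at 2.37 ± 0.966 CPM in senescent and 0.2202 ± 0.189 CPM in healthy libraries (log2 fold change 3.38 ± 0.58, adjusted p = 0.00243) and Rbl1 at 3.65 ± 0.0803 CPM in senescent and 1.32 ± 0.396 CPM in healthy libraries (log2 fold change 1.46 ± 0.26, adjusted p = 0.00282) (edgeR). Zinc-finger genes share only a name: 43 of 323 tested Zfp genes were higher and 33 lower. Snai2 averaged 1.11 against 2.78 CPM and was called lower, a call lost in 4 of 11 alternatives.

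Genes of neurons and excitable cells made up 5 members, with 29.3, 38.8 and 41.8 CPM in senescent replicates 1 to 3, beside 0.236, 0.195 and 0.0707 CPM in the healthy ones. Svop (ENSMUSG00000042078; GRCm38 chromosome 5, 114026910 to 114091570, minus strand), a transporter-like protein of synaptic vesicles, had 11.99, 19.5 and 13.05 CPM in the senescent libraries, against 0 counts in each healthy one. Celf5 (ENSMUSG00000034818; GRCm38 chromosome 10, 81459227 to 81482709, minus strand), a brain RNA-binding protein of the CELF family, had 7.72, 8.77 and 13.1 CPM in the senescent libraries, against 0 counts in each healthy one, or at least 275-fold higher against the floor. Scn3b, the β3 subunit of voltage-gated sodium channels, had 4.52, 5.36 and 8.19 CPM in the senescent libraries, against 0 counts in each healthy one. Dscaml1, an adhesion molecule of retina and brain, had 2.65, 2.83 and 3.76 CPM in the senescent libraries, against 0 counts in each healthy one. The fifth, Celf4, a close relative of Celf5 and also a brain gene, differed in being detected in every healthy library, with 2.37, 2.36 and 3.73 CPM in the senescent libraries, against 0.236, 0.195 and 0.0707 CPM in the healthy libraries. In the gene model the Svop locus overlaps Usp30 on the opposite strand over 26110 bases, and reads of such pairs cannot be told apart if strand was not used in counting.

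Most other genes of neurons were too low to be tested. Of 55 further neuron and synapse genes 10 had enough counts to be tested, 1 was higher and 2 were lower, and their summed level over the list was 12.7 to 17.9 CPM in senescent and 19.7 to 27.2 CPM in healthy libraries. In all senescent libraries 24 of the list were at 0 counts. Dlg4, a scaffold of the synapse, averaged 0.485 CPM in senescent and 0.0961 CPM in healthy libraries and was the gene called higher. Of the CELF family Celf1 averaged 91.2 against 73.2 CPM and was not called, and Celf2 6.29 against 3.46 CPM and was called higher, a call lost without senescent replicate 3 and without healthy replicates 2 or 3.

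Genes of the cytoskeleton, matrix and cell polarity made up 8 members, with 109, 147 and 162 CPM in senescent replicates 1 to 3, beside 0.977, 1.09 and 0.601 CPM in the healthy ones. Synm (ENSMUSG00000030554; GRCm38 chromosome 7, 67730160 to 67759742, minus strand), the intermediate filament protein synemin of muscle, had 25.2, 44.1 and 47.3 CPM in the senescent libraries, against 0.0337, 0.233 and 0.0353 CPM in the healthy libraries. Kifc1 (ENSMUSG00000079553; GRCm38 chromosome 17, 33875659 to 33890661, minus strand), a minus-end kinesin of the spindle that is also abundant in testis, had 27.6, 26.4 and 30.6 CPM in the senescent libraries, against 0.3704, 0.233 and 0.0353 CPM in the healthy libraries. Both were well covered, with 4051 and 2952 counts over the senescent group, against 8 and 18 over the healthy group. Col22a1 (ENSMUSG00000079022; GRCm38 chromosome 15, 71795795 to 72034227, minus strand), a collagen of the muscle-tendon junction, had 18.7, 27.7 and 25.5 CPM in the senescent libraries, against 0.0337, 0.117 and 0.141 CPM in the healthy libraries. Cercam, given above, stood next. Gipc2, a PDZ adaptor, had 6.64, 9.21 and 10.8 CPM in the senescent libraries, against 0.0337, 0.0389 and 0.212 CPM in the healthy libraries. Plod2, a lysyl hydroxylase that modifies collagen, had 3.65, 6.44 and 11.9 CPM in the senescent libraries, against 0.0337, 0.0389 and 0.0353 CPM in the healthy libraries, the widest spread among senescent libraries of all 53 members (coefficient of variation 57.2%). Pard6g, a PAR6 scaffold of the polarity complex listed as a p53 target, had 3.76, 6.03 and 8.01 CPM in the senescent libraries, against 0.303, 0.428 and 0.106 CPM in the healthy libraries. Ttll9, a tubulin-modifying enzyme of sperm flagella, had 2.93, 3.41 and 4.43 CPM in the senescent libraries, against 0.135, 0 and 0.0353 CPM in the healthy libraries.

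A list of filament and linker genes was set beside synemin after the members had been read, and whether each binds synemin was not examined. On it 5 of 7 tested genes were higher in senescent cells and 0 lower, beside 20.4% and 20.7% of all genes. These 5 were the keratins Krt8 (502 ± 137 CPM in senescent and 249.9 ± 39.4 CPM in healthy libraries (log2 fold change 1.01 ± 0.22, adjusted p = 0.00754)) and Krt18 (340.4 against 182 CPM), the lamin gene Lmna (116 against 42.3 CPM), Vim and Dmd. The calls of Vim and Dmd were lost in 4 and 2 alternatives, those of the keratins and Lmna in none of 11. The muscle filament gene Des (0.612 against 0.319 CPM) and the linker gene Plec (64.5 against 60.8 CPM) were not called. The Kifc relative Kifc5b averaged 8.86 against 0.404 CPM and was called higher, but it is a near-identical copy of Kifc1 and reads may be split between them, so both levels are uncertain. In the polarity complex 2 of 8 tested genes were higher, Prkci (22.8 against 10.9 CPM) and Cdc42 (156 against 111 CPM), and 2 lower, and Pard3 averaged 62.9 against 70.3 CPM and was not called. Plod1 was called lower (34.1 against 51.2 CPM), except with total library sizes and without senescent replicates 2 or 3. The overlap of Synm with Ttc23 on the opposite strand (29583 bases; Ttc23 averaged 26.4 CPM in senescent and 53.5 CPM in healthy libraries, and was called lower) leaves the Synm level uncertain if strand was not used.

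Lipid and metabolic genes made up 6 members, with 45.4, 70.9 and 73.3 CPM in senescent replicates 1 to 3, beside 0.438, 0.156 and 0.177 CPM in the healthy ones. Sec14l5, given above, was the most abundant. Alox5 (ENSMUSG00000025701; GRCm38 chromosome 6, 116410077 to 116461178, minus strand), the 5-lipoxygenase that starts leukotriene synthesis in myeloid cells, had 3.49, 9.64 and 12.2 CPM in the senescent libraries, against 0 counts in each healthy one. Replicate 3 was 3.503 times replicate 1, the steepest such ratio among the members. Them5, a mitochondrial acyl-CoA thioesterase, had 3.68, 8.01 and 9.55 CPM in the senescent libraries, against 0.0673, 0 and 0 CPM in the healthy libraries. Plcd4, a phospholipase C known for its part in the sperm acrosome reaction, had 5.91, 8.19 and 6.77 CPM in the senescent libraries, against 0 counts in each healthy one. Abca17, a lipid transporter gene of testis, had 2.45, 4.43 and 4.51 CPM in the senescent libraries, against 0.202, 0.117 and 0.141 CPM in the healthy libraries. Got1l1, an aspartate aminotransferase-like gene of testis, had 2.45, 3.06 and 1.74 CPM in the senescent libraries, against 0.0337, 0 and 0 CPM in the healthy libraries, and had the lowest senescent mean of all members. Alox5, Them5 and Abca17 were at their lowest in senescent replicate 1, and Got1l1 in replicate 3.

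Relatives of these enzymes were mixed. Them4, which lies 9559 bases from Them5, averaged 6.15 ± 1.197 CPM in senescent and 12.1 ± 1.496 CPM in healthy libraries (log2 fold change -0.98 ± 0.18, adjusted p = 0.00339) (edgeR) and was lower in senescent cells. Of 9 tested Abca genes 1 was higher, Abca9 (4.22 against 1.67 CPM), and 2 lower, Abca8a (26.3 against 122 CPM) and Abca3. No relative of Alox5 or Plcd4 had enough counts to be tested. In the leukotriene pathway 2 of 6 tested genes were higher and 0 lower. Alox5ap, which presents arachidonate to 5-lipoxygenase and is also a myeloid gene, averaged 1.35 CPM in senescent and 0.4801 CPM in healthy libraries, a call lost without senescent replicate 1. Ltb4r2 averaged 2.71 against 1.51 CPM, a call lost in 4 of 11 alternatives. Macrophage genes summed to 474, 315 and 599 CPM in senescent and 301, 325 and 121 CPM in healthy replicates 1, 2 and 3, so that replicate 2 was the lowest senescent library for them and replicate 1 for Alox5. Of 21 tested macrophage genes 5 were higher and 0 lower in senescent cells, with a median log2 fold change of 1.02, and the part of these cells in the level of Alox5, Cd80 and Adam8 was not tested. In healthy libraries the same list summed to 121 to 325 CPM while Alox5 had no count. Sums over bulk samples do not tell which cells held the Alox5 RNA.

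Membrane and trafficking genes made up 6 members, with 56.4, 70.5 and 76.8 CPM in senescent replicates 1 to 3, beside 0.6398, 0.934 and 0.672 CPM in the healthy ones. Besides Prrg4, the most abundant was Pqlc3 (ENSMUSG00000045679; GRCm38 chromosome 12, 16988648 to 17000408, minus strand), a PQ-loop membrane protein, with 13.6, 24.4 and 23.3 CPM in the senescent libraries, against 0, 0.117 and 0 CPM in the healthy libraries. Its 3 healthy counts all fell in replicate 2. Dennd2c, a DENN-domain protein of the class that activates Rab GTPases, had 6.804, 5.56 and 7.75 CPM in the senescent libraries, against 0.303, 0.311 and 0.318 CPM in the healthy libraries, and its healthy mean was the highest of any member. Rufy4, an endosome protein known from dendritic cells, had 5.05, 5.04 and 4.51 CPM in the senescent libraries, against 0.202, 0.272 and 0.247 CPM in the healthy libraries. Tmem229a, a multipass membrane protein, had 4.52, 4.57 and 5.24 CPM in the senescent libraries, against 0.0337, 0.156 and 0.0707 CPM in the healthy libraries. Map3k9, a mixed-lineage kinase upstream of JNK, had 2.96, 4.08 and 4.89 CPM in the senescent libraries, against 0.101, 0.0778 and 0.0353 CPM in the healthy libraries. Rufy4 was 1 of 6 members that were lowest in senescent replicate 3.

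The kinase family held tested relatives called in both directions. Of 16 tested Map3k genes 5 were higher and 2 lower in senescent cells, beside 20.4% and 20.7% of all genes. Map3k20, the ribosome stress kinase ZAK, averaged 60.2 ± 4.66 CPM in senescent and 9.62 ± 0.644 CPM in healthy libraries (log2 fold change 2.64 ± 0.12, adjusted p = 2.19e-06), and Map3k21, a mixed-lineage kinase like Map3k9, 2.299 ± 0.173 CPM in senescent and 6.21 ± 1.09 CPM in healthy libraries (log2 fold change -1.43 ± 0.20, adjusted p = 8.82e-04) (edgeR). All 13 Dennd relatives were tested, 3 were higher and 3 lower, with Dennd5a at 49.8 against 23.96 CPM. Rufy1 averaged 15.4 against 25.4 CPM and was called lower. Pqlc1 averaged 109 against 73.1 CPM and was called higher, a call lost without senescent replicate 1 or 2.

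Of the 3 genes of little described function, Mroh7 (ENSMUSG00000047502; GRCm38 chromosome 4, 106680417 to 106730925, minus strand), a maestro HEAT-repeat gene, had 10.3, 11.4 and 14.4 CPM in the senescent libraries, against 0.101, 0.156 and 0.0707 CPM in the healthy libraries. Prr15l had 2.29, 3.76 and 6.05 CPM in the senescent libraries, against 0.0673, 0 and 0 CPM in the healthy libraries, and Fndc10 2.17, 3.87 and 2.95 CPM in the senescent libraries, against 0.135, 0.117 and 0.141 CPM in the healthy libraries. The 5 members that are noncoding or unnamed summed to 18.2, 16.9 and 18.5 CPM in senescent replicates 1 to 3, beside 1.01, 0.389 and 0.389 CPM in the healthy ones. AC154366.4 (ENSMUSG00000117648; GRCm38 chromosome 17, 78199256 to 78200025, minus strand) is annotated as a noncoding transcript from a bidirectional promoter. It had 5.47, 5.098 and 5.41 CPM in the senescent libraries, against 0.303, 0 and 0 CPM in the healthy libraries, and all 9 healthy counts fell in replicate 1. With an exon length of 0.53 kb it ranked second per kilobase, at 10.1 ± 0.375 CPM per kb, followed by Tnfrsf10b at 9.599 ± 0.356, Prrg4 at 8.57 ± 1.202 and Kifc1 at 8.26 ± 0.624. The long noncoding RNAs Gm19705, Gm9949 and Gm13056 averaged 3.66, 3.23 and 2.97 CPM in senescent libraries, against 0.2703, 0.0915 and 0.0984 CPM in healthy ones. The remaining gene, ENSMUSG00000118559, has no entry in GENCODE M21 and is named by its identifier alone, with 3.88, 2.24 and 1.996 CPM in the senescent libraries, against 0.0337, 0 and 0.0707 CPM in the healthy libraries.

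**Figure D2:**
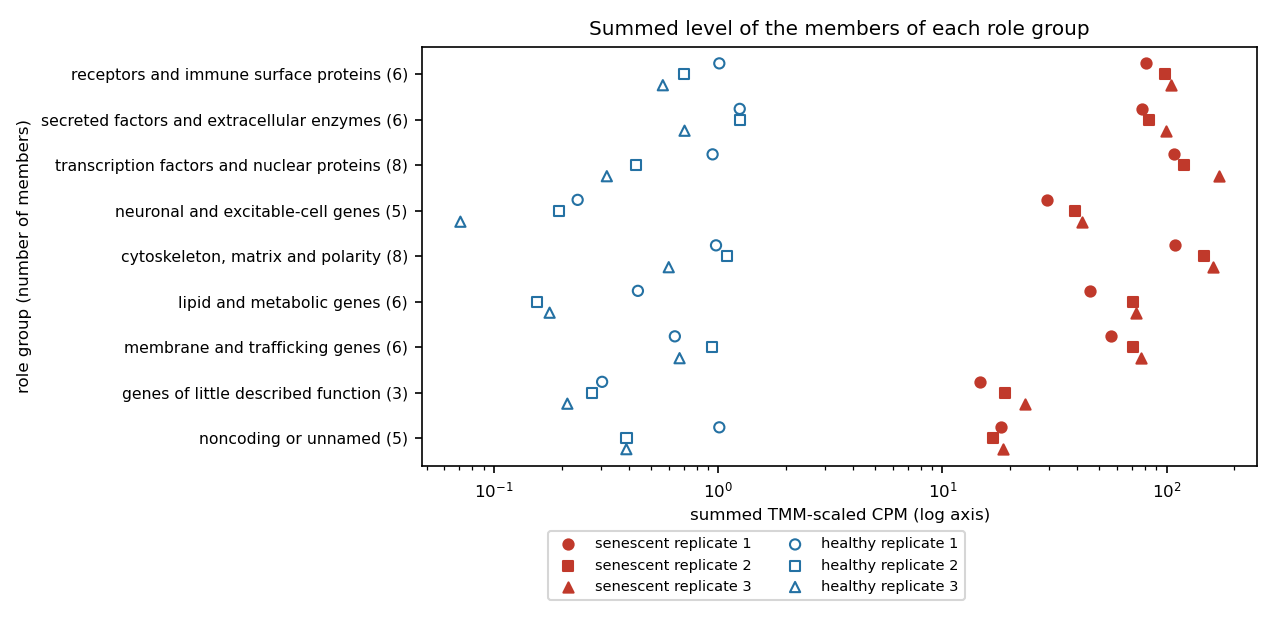
Rows are the role groups with their number of members, and each mark is the CPM of a library summed over the group (filled, senescent; open, healthy; log axis). Senescent sums run from 14.7 to 171 CPM, and senescent replicate 1 is the lowest senescent library in every group but that of noncoding or unnamed members.

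Among themselves the senescent libraries were not equal for these genes. Replicate 3 was the highest senescent library for 36 of 53 members (67.9%), beside 58.7% of all genes called higher and 34.8% of all genes tested. Replicate 1 was the lowest for 38 (71.7%), beside 52.95% of genes called higher and 37.2% of all tested. The median ratio of replicate 3 to replicate 1 was 1.404 over members, 1.14 over genes called higher and 1.02 over all tested, and the median coefficient of variation 22.3%, 11.7% and 11.3%. The members had a median senescent mean of 6.29 CPM. Counting error is larger at low levels, and a comparison at matched level was not made. Abundant members differed in spread. In senescent replicates 1 to 3, Mybl1 had 68.9, 75.3 and 116 CPM and Synm 25.2, 44.1 and 47.3 CPM. Tnfrsf10b, at 51.3, 54.6 and 51.2 CPM, and Kifc1, at 27.6, 26.4 and 30.6 CPM, were nearly even. The part of counting error in the spread of the members was not tested. In 8 members the highest senescent library was at least 2 times the lowest, and in 23 it was under 1.5 times.

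The members at the steep end were Alox5, Plod2, Prr15l, Them5, Tnfrsf18 and Pard6g, in each of which replicate 3 was over 2 times replicate 1. At the even end stood Tnfrsf10b, AC154366.4 and Rufy4. The 5 lowest ratios of replicate 3 to replicate 1 were those of ENSMUSG00000118559, Got1l1, Zfp462, Zfp423 and Rufy4, from 0.515 to 0.894. The targeted gene Mdm2 was also highest in senescent replicate 3, at 501 CPM, while Cdkn1a was highest in replicate 2, at 773 CPM. Stellate cell and fibroblast genes summed to 37.6, 39.3 and 54.1 CPM in senescent and 18.1, 23.8 and 15.4 CPM in healthy replicates 1, 2 and 3, and were also highest in senescent replicate 3. Their part in the order of the libraries was not tested.

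**Figure D3:**
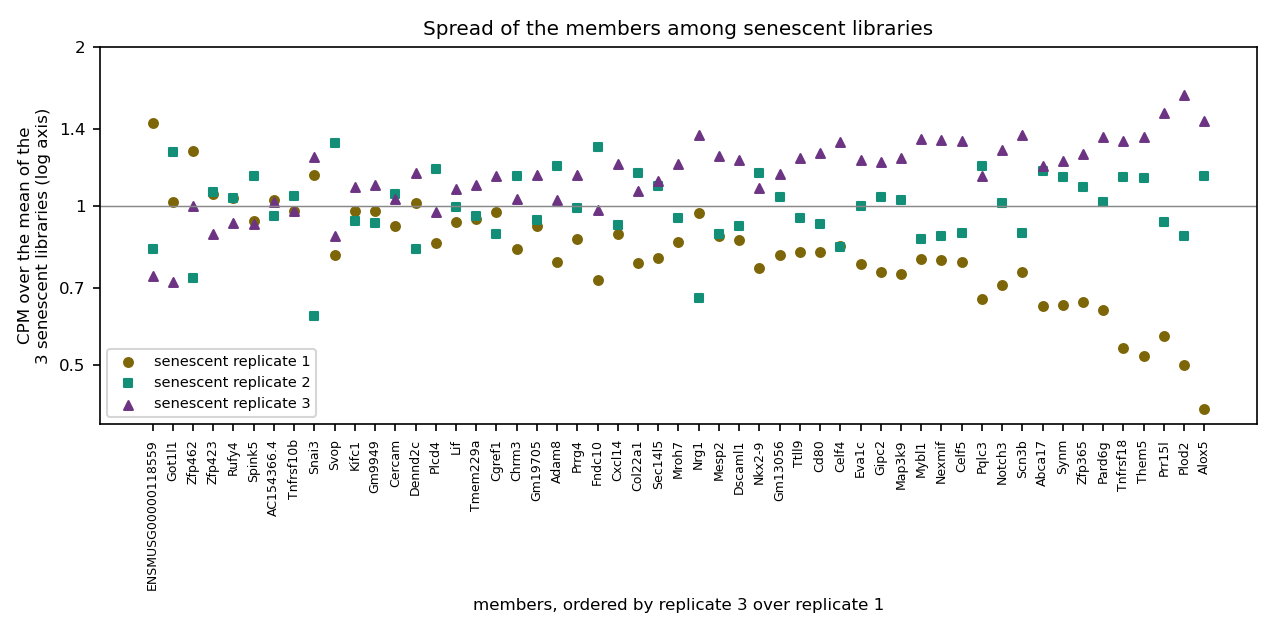
Members along the axis are ordered by the ratio of senescent replicate 3 to replicate 1, and each mark is a senescent library's CPM over the mean of the 3 (log axis). Marks of replicate 3 lie above 1 for most members, and the ratio runs from 0.515 in ENSMUSG00000118559 to 3.503 in Alox5.

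Across families, 42 members had a symbol stem that could be shared, and 29 of their 38 stems had a tested relative outside the set. Of 603 tested relatives 103 were higher and 99 lower in senescent cells, with a median log2 fold change of 0.04. Without the Zfp, Tmem and Prr symbols, which share only a name, 28 of 113 were higher and 24 lower, with a median of 0.10. Both stand beside 20.4% higher and 20.7% lower among all genes tested. Individual relatives still reached large values. Notch1, given above, was called in every alternative. The pancreatic trypsin inhibitor gene Spink1 averaged 0.467 CPM in senescent and 0.0118 CPM in healthy libraries, with a log2 fold change of 4.89 ± 0.76 on few counts. Of the tubulin-modifying Ttll genes, Ttll1 averaged 5.94 against 2.23 CPM and was higher, and Ttll5 5.704 against 10.1 CPM and was lower. With library sizes left unscaled the balance shifted to 204 relatives higher and 36 lower, as the median of all genes moved by over 0.1, to 0.33 from 0.01 on the log2 scale.

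**Figure D4:**
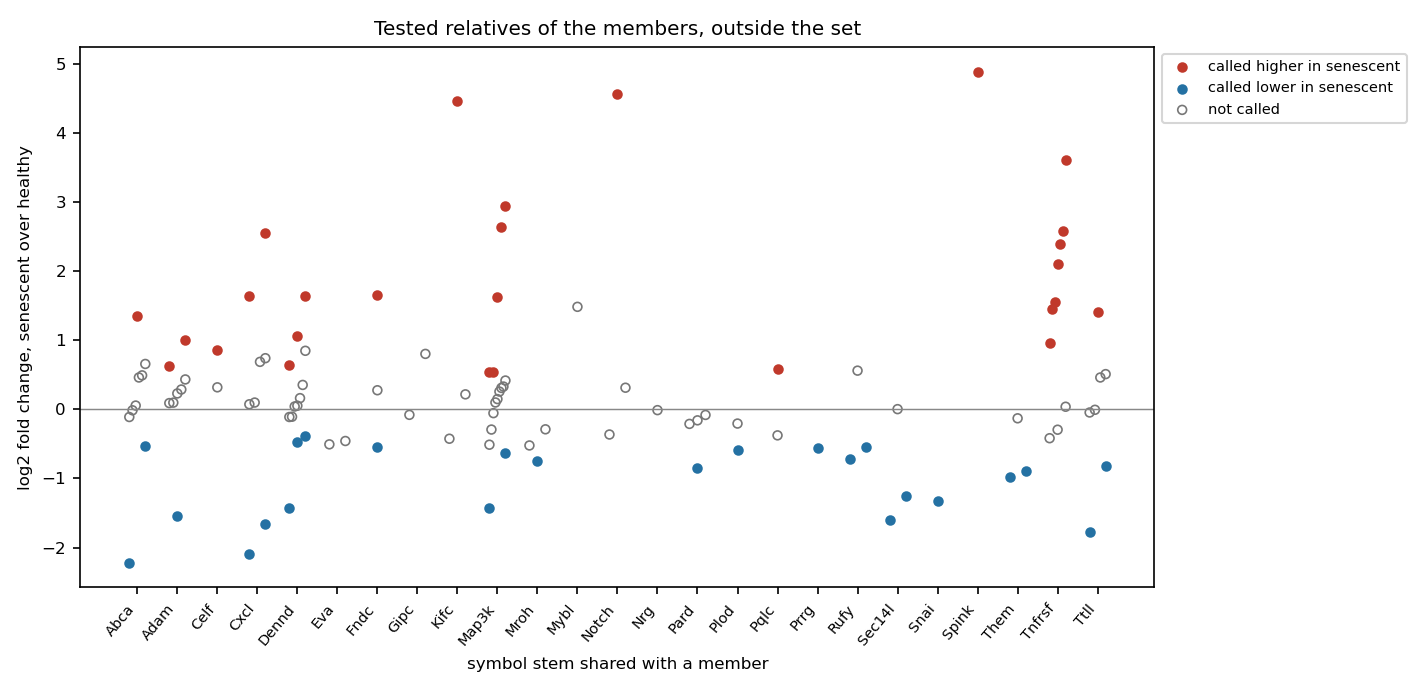
Each mark is a tested gene outside the set that shares a symbol stem with a member, by stem, with its log2 fold change of senescent over healthy (red, called higher; blue, called lower; open, not called). Symbols of the Zfp, Tmem, Prr and Scn type are not drawn. The largest values shown are Spink1 at 4.89 and Notch1 at 4.56, and most stems straddle 0.

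Over the 11 lists of pathway partners together, 24 of 88 tested genes were higher and 14 lower, with a median log2 fold change of 0.19. The lists were written from general knowledge of each pathway, after the members had been read and with earlier results of these data known. The filament and linker genes set beside synemin had the highest median among lists of at least 4 tested genes, 0.91. The ErbB receptor genes had the lowest, -0.47. These counts describe the lists and set none of them apart from other genes.

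**Figure D5:**
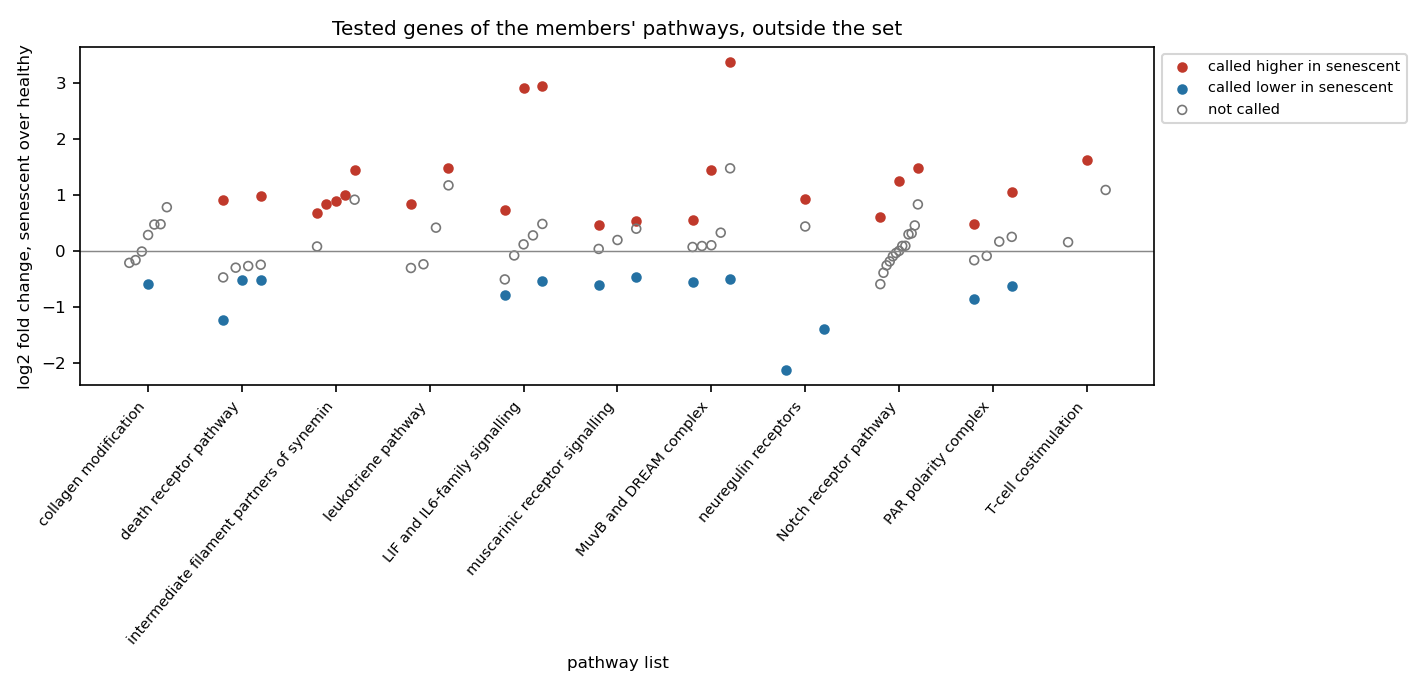
Each mark is a tested pathway gene outside the set, by list, with its log2 fold change of senescent over healthy (red, called higher; blue, called lower; open, not called). The highest marks are Foxm1 at 3.38, Clcf1 at 2.96 and Osmr at 2.92, and the lowest is Erbb4 at -2.12.

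By tissue of usual expression, 28 members could be placed from general knowledge and 25 were left without a tissue. The largest group, 8 genes of the nervous system (Svop, Scn3b, Celf4, Celf5, Dscaml1, Nexmif, Zfp365 and Nrg1), summed to 66.7, 76.3 and 101 CPM in senescent replicates 1 to 3, beside 0.404, 0.389 and 0.141 CPM in the healthy ones, and 5 of the 8 had no healthy count. The 5 genes of testis and sperm (Mybl1, Got1l1, Ttll9, Abca17 and Plcd4) summed to 82.7, 94.4 and 134 CPM in senescent replicates 1 to 3, beside 0.673, 0.311 and 0.318 CPM in the healthy ones. Most of that sum was Mybl1. The 5 genes of blood and immune cells (Alox5, Cd80, Tnfrsf18, Adam8 and Rufy4) summed to 41.2, 65.4 and 66.9 CPM in senescent replicates 1 to 3, beside 0.741, 0.622 and 0.389 CPM in the healthy ones. The 4 genes of muscle and vessel wall (Synm, Notch3, Col22a1 and Chrm3) summed to 59.2, 93.6 and 98.5 CPM in senescent replicates 1 to 3, beside 0.236, 0.506 and 0.283 CPM in the healthy ones. Smaller groups were those of skin and lining epithelium (Spink5 and Cxcl14), embryo (Mesp2 and Nkx2-9) and connective tissue (Plod2 and Zfp423).

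Marker lists of the same tissues, outside the set, mostly stayed at low counts. For testis and germ line only 2 of 39 genes had enough counts to be tested, 1 was higher, the sperm-tail gene Odf2 (25.3 against 8.73 CPM), and 25 were at 0 counts in all senescent libraries. For muscle 0 of 4 tested genes were higher and 1 lower, with 19 of 33 at 0 in all senescent libraries. For skin and stratified epithelium 5 of 9 tested genes were higher and 1 lower, the higher ones led by Perp (421 against 98.3 CPM), itself a p53 target, and Pkp3 (9.26 against 1.17 CPM). Neither germ-line nor muscle lists had many detected genes in either group.

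For cells that a liver preparation can carry, lists were also read. Stellate cell and fibroblast genes, as summed above, had 8 of 15 tested genes higher and 0 lower, led by Reln (5.39 against 2.098 CPM) and Pdgfra (0.832 against 0.133 CPM), with Col1a1 at 1.52 against 0.814 CPM and not called. Endothelial genes summed to 186 to 248 CPM in senescent and 165 to 227 CPM in healthy libraries, with 3 of 18 higher and 0 lower. Neutrophil genes summed to 4.195 to 5.605 CPM in senescent and 0.848 to 1.78 CPM in healthy libraries, and all 5 tested were higher, with S100a9 at 1.17 against 0.207 CPM. Lymphocyte genes summed to 5.098 to 9.84 CPM in senescent and 1.84 to 6.13 CPM in healthy libraries, and the 1 tested gene was not called. Cholangiocyte and progenitor genes summed to 163 to 171 CPM in senescent and 134 to 153 CPM in healthy libraries, with 5 of 14 higher, 1 lower, and Krt19 at 0.745 against 0.0685 CPM. No gene of the macrophage, stellate, endothelial, neutrophil or lymphocyte lists was at 0 in all senescent libraries. The part of these cells in the level of any member was not tested.

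The p53 target list held 5 members, Tnfrsf10b, Lif, Zfp365, Tnfrsf18 and Pard6g. Outside the set 81 of 121 tested targets were higher in senescent cells and 10 lower, with a median log2 fold change of 1.22, beside 20.4% and 20.7% of all genes and a median of 0.01. Gtse1, which shuttles p53 out of the nucleus, averaged 143 ± 19.7 CPM in senescent and 0.409 ± 0.0939 CPM in healthy libraries (log2 fold change 8.44 ± 0.21, adjusted p = 2.74e-07) and Prodh, a proline-degrading enzyme, 80.2 ± 6.78 CPM in senescent and 282 ± 62.4 CPM in healthy libraries (log2 fold change -1.81 ± 0.17, adjusted p = 1.29e-04) (edgeR). Genes of G2 and mitosis, the company of Kifc1 in the spindle, had 28 of 30 tested members higher and 0 lower, with Ttk at 2.22 against 0.0696 CPM and a log2 fold change of 3.76 ± 0.43 for Hmmr. They summed to 111, 57.2 and 104 CPM in senescent and 41.3, 26.5 and 20.0 CPM in healthy replicates 1, 2 and 3. Senescent replicate 2 was thus the lowest for them, while Kifc1 was nearly even, at 27.6, 26.4 and 30.6 CPM in senescent replicates 1 to 3.

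In the genome, 27 members had a tested gene within 10000 bases. Of those 33 neighbours 10 were higher and 8 lower in senescent cells, beside 20.4% higher and 20.7% lower among all genes tested. Their median log2 fold change was 0.08. AC154366.4 starts 223 bases from Crim1, on the opposite strand, and Crim1 averaged 22.9 against 5.99 CPM in senescent against healthy libraries and was called higher. Got1l1 follows Adrb3, the β3 adrenergic receptor gene, on the same strand at 1948 bases, and Adrb3 was called higher (16.4 against 3.17 CPM). Adam8 follows Tubgcp2 in the same way at 3393 bases (27.8 against 10.9 CPM, called higher). Abca17, in contrast, lies 882 bases from Abca3, which was called lower (123 against 177 CPM), a call lost with total library sizes and without any 1 of the senescent replicates. Ttll9 ends 408 bases from Pdrg1, a p53- and DNA damage-regulated gene that was called higher (72.4 against 14.5 CPM). In 4 members (Plcd4, Svop, Synm and Prr15l) the gene body overlaps that of a tested gene, and the sources used here do not give whether strand was used in counting, so their levels are uncertain to that extent.

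At the limits of the rule the values ran on without a gap. Just inside the healthy limit of 0.3 CPM were Dennd2c, with a healthy mean of 0.279, Tnfrsf10b with 0.272 and Spink5 with 0.262 CPM on total counts, and among those just outside it were Rpgrip1 with 0.307, Fam78a with 0.309, Espn with 0.314 and Ddr1 with 0.316. Just inside the senescent limit of 2 CPM was Got1l1, whose lowest senescent library had 2.001, followed by ENSMUSG00000118559 with 2.301 and Fndc10 with 2.45 CPM. Just outside it were Hmmr with 1.96, Kif18b with 1.96, Mfap3l with 1.94, Ttk with 1.92 and Rprm with 1.91 CPM. Kif18b, a mitotic kinesin, and Rprm, a p53-induced inhibitor of the cell cycle, had no healthy count and missed the set by their senescent level alone.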

How the data were processed

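The authors deposited raw read counts per gene, as whole numbers, for all 6 libraries. The submitters' processing notes name the build GRCm38 with STAR 2.7.1a, featureCounts, cutadapt 1.16, DESeq2 1.34.0, MultiQC 1.3 and FastQC. Annotation release, strand setting and filters: not given in the sources used here. Per the labels' protocols, libraries were made from 500 ng of RNA with poly-A selection and a directional kit.

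A column was given to a sample by its code in the labels. The code of healthy replicate 2 differs from its column's in a single letter, and results without that library are in the closing section. No row was nameless. Gene types, positions and exon lengths came from GENCODE M21, which is not necessarily the authors' release, and promoters from RefSeq (GRCm38.p6).

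The rule for members used CPM on total counts, and printed levels use TMM-scaled library sizes. The whole table was tested with edgeR 4.0.16 (R 4.3.3) (quasi-likelihood F test, two-sided) on genes passing filterByExpr with a minimum count of 10 and a minimum total of 15, with adjusted p under 0.05 over 12949 genes called. SEs of log2 fold changes were derived from the F statistic. A ratio for a member with 0 healthy counts is a lower bound against 3 counts over the healthy group, and with 1 to 3 counts it has an exact 95% interval. Intervals and floors cover counting error only. The test was tried on simulated counts.

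The members and all gene lists were chosen with earlier results of these data known, and the pathway lists after the members had been read. Genes named outside the set were, per family, the called ones of smallest p and the most abundant, per list those of smallest p in each direction, the genes nearest the limits of the rule and Mdm2, Cdkn1a, Trp53 and Alb. Beyond that rule, pathway partners, neighbours and further relatives were named after their values had been seen. Trp53 averaged 18.0 CPM in senescent and 15.1 CPM in healthy libraries and was not called. Alternatives were DESeq2 1.42.0, size factors of the DESeq2 type (RLE), total library size, no filter, leaving out each library, a replicate block, and other limits of the rule. No library looked like a copy of another. Some genes that the naming rule picks are not reported here.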

Additional observations from a re-analysis of the deposited data

How the results depend on the processing

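The number of members depends on the limits of the rule. It was 53 as described, 84 with a healthy mean under 0.5 CPM, 46 with one under 0.2 CPM, 107 with at least 1 CPM and 35 with at least 4 CPM in each senescent library, 82 with a senescent mean of at least 2 CPM, and 49 on TMM-scaled CPM. Without 1 library it was 53 to 74, and 50 to 53 of the described members were kept.

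Total library size, in place of TMM, gave 4861 genes higher and 1285 lower in place of 2644 and 2680, 204 relatives higher and 36 lower in place of 103 and 99, 6 p53 targets lower in place of 10, and 6 genes of other cells and tissues lower in place of 11. Without 1 library the counts were 1836 to 2691 genes higher and 1489 to 2789 lower, 68 to 121 relatives higher and 43 to 100 lower, 74 to 80 p53 targets higher and 6 to 10 lower, and 41 to 75 genes of other cells and tissues higher and 6 to 14 lower. The lowest count came without senescent replicate 3 in each of these, and for p53 targets lower also without healthy replicate 2. The cause was not tested. DESeq2, RLE size factors and no filter kept all of these counts within 1.5 times.

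Replicate numbers did not pair the samples, since the deviations of same-numbered libraries correlated at 0.228, -0.174 and -0.043. With the replicate block 2576 genes were higher and 2625 lower, 102 relatives higher and 93 lower. Of 141 called genes that could be named, 86 were called in all 11 alternatives, 55 lost the call in at least 1, and 0 reversed. Without healthy replicate 2 there were 2095 genes higher and 2096 lower. Depth limits what silence means: a healthy count of 0 allows up to 0.104 CPM on total counts in a library, or 0.117 CPM on the TMM scale.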
